A study of Mus musculus with 64 samples.

Results

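The 10 genes described here are core and output genes of the circadian clock: Clock, Npas2, Per1, Per2, Per3, Cry1, Cry2, Nr1d1, Nr1d2 and Dbp. They were chosen by name, and each was found once among the 48440 gene IDs of the liver mRNA table and once among those of the gonadal adipose mRNA table. All mice were of the 129S6/SvEvTac strain and all drank water with inorganic arsenic at 400 ppb for 4 weeks, so every comparison is among exposed animals. WT mice carried the mouse ortholog of AS3MT, the enzyme that methylates arsenic, and humanized mice carried the human ortholog. The 4 groups were females and males of each genotype, with 3 liver libraries each and with 3 adipose libraries each except WT males, which had 2. Libraries are named here by group and by the replicate number of the labels, which runs from 1 to 3 in liver and from 4 to 6 in adipose tissue. The age of the mice, the hour of tissue collection and the lighting and feeding schedule were not given in the sources used here. Whether liver and adipose libraries came from the same mice was not given either.

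The clock is a loop of transcription factors that turns over about once a day in nearly every cell. CLOCK or its relative NPAS2 pairs with BMAL1, encoded by Arntl, and drives genes that hold E-boxes, among them the Per and Cry genes, Nr1d1, Nr1d2 and Dbp. PER and CRY proteins then repress CLOCK and BMAL1, the REV-ERB receptors encoded by Nr1d1 and Nr1d2 repress Arntl, Npas2, Clock and Cry1, and DBP carries the rhythm to output genes with a D-box. In mouse liver the Nr1d1 and Dbp transcripts are known to peak in the day and the Per transcripts later, towards dusk, while Arntl, Npas2, Clock and Cry1 peak in the night or around dawn. The ratio of these opposed arms in a sample therefore moves with the hour at which it was taken, and in liver also with feeding.

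The elements of the loop were looked for in the promoters. RefSeq promoter windows (GRCm38.p6) of 300 bases, running from before to just after the annotated start, were matched by symbol for 9 of the 10 members, in 12 windows. They were searched on both strands for the E-box CACGTG, for the D-box TTATGTAA or TTACGTAA, and for AGGTCA, the core of the element bound by the REV-ERB receptors. The E-box was in 2 of the 12 windows, of Per1 and Cry1, and in 7.15% of all 32851 promoter windows. The D-box was in 1 window, that of Per3, which held it at 2 places, and in 1.06% of all windows. The receptor core was in 3 windows, of Clock, Per1 and Nr1d2, and in 16.3% of all. With 12 windows these counts do not set the members apart from other promoters, and the windows of Dbp, Nr1d1, Cry2 and Npas2 held none of the 3 motifs. A match is a run of letters, not a measured site, and no match says only that the letters are not in this window. The windows of Per1 and Cry1 are shown for the E-box, that of Per3 for the D-box to which DBP binds, and that of Arntl, the partner of Clock and Npas2, for the receptor core, with the matched letters in capitals:
Per1, chr11:69098699-69098998, plus strand: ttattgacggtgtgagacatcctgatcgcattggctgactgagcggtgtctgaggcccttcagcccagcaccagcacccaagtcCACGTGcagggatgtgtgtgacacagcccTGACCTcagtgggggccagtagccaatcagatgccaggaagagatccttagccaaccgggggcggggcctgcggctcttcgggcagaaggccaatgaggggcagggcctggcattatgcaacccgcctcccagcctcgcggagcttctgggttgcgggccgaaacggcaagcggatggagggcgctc
Cry1, chr10:85185005-85185304, minus strand: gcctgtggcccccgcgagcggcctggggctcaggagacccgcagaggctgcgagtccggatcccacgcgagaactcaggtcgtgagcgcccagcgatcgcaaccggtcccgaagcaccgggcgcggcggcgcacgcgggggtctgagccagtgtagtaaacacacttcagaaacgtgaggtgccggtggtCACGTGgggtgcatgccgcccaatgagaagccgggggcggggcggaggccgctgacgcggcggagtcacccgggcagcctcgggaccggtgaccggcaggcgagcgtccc
Per3, chr4:151044616-151044915, minus strand: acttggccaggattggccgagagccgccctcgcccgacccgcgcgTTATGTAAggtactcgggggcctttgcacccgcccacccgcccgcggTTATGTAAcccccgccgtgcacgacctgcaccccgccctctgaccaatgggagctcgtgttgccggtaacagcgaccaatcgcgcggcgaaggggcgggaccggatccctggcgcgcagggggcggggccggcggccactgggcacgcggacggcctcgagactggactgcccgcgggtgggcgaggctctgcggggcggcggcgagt
Arntl, chr7:113207261-113207560, plus strand: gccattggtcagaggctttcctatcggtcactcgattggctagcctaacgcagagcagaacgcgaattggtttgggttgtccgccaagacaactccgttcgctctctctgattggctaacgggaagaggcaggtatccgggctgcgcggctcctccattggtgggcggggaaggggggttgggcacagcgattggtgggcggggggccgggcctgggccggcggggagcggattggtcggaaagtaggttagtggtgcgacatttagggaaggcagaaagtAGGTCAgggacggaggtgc

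Values are the authors' DESeq2 normalized counts, whose sum per library was 77307210 to 95381805 in liver and 83100312 to 90417259 in adipose tissue. As3mt was listed at 2624 to 6111 in WT and at most 5.98 in humanized livers, and at 1218 to 1737 in WT and at most 5.33 in humanized adipose tissue, as the labels state. Its neighbour Borcs7 was low in humanized mice too, at 8.54 to 15.1 against 620 to 837 in WT livers, so the counts of more than 1 mouse gene differ at this locus. Whether a human copy of either gene was expressed cannot be read from counts of the mouse genes. Within each tissue the libraries are set side by side gene by gene, and levels of different genes were not compared, since transcript lengths were not used here. All 10 members passed the filter of a mean of at least 10 in both tissues, which left 15180 genes tested in liver and 17394 in adipose tissue. A call means a limma p under 0.05 after Benjamini-Hochberg adjustment over all of them, and differences are on the scale of log2(normalized count + 1). In bulk tissue, fewer cells of a type and less RNA per cell cannot be told apart. Nothing in the labels says more of how the mice were sampled, so p-values measure the spread between these libraries. Summed hepatocyte markers were at 7877690 to 14088900 in every liver, and summed adipocyte markers at 1498700 to 2421490 in every adipose sample. The labelled liver preparation was not visible in 3 RNAs without a polyA tail (Rmrp, Rpph1 and Scarna2), whose sum was 69.6 to 158 in the ribosomal depletion and 69.0 to 139 in the polyA libraries. Humanized male 4 stood apart in adipose tissue, with the highest summed macrophage markers of the 11 libraries, 232097 against 30089 to 106962 in the others, and the lowest adipocyte marker sum.

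In liver none of the 10 members passed the threshold between humanized and WT mice or between males and females, and several varied widely between libraries of the same group. Among the 12 livers the normalized count of Npas2 varied 24.1-fold from the lowest to the highest library, that of Per3 9.76-fold and that of Dbp 6.40-fold. The most even members were Nr1d2, at 1.94-fold, and Cry2, at 1.96-fold. WT male 1 had the lowest count of the 12 livers for Per1, Per2, Per3, Cry1, Cry2 and Dbp, and the highest for Clock and Npas2.

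Clock (ENSMUSG00000029238), the DNA-binding activator of the loop, was at 1163, 2713 and 1688 in WT females and at 3944, 2128 and 1557 in WT males. It was at 1486, 1296 and 800 in humanized females and at 2216, 1244 and 1877 in humanized males. The 4 groups overlapped, with the single high value in WT male 1 and the single low one in humanized female 3. Npas2 (ENSMUSG00000026077), which can stand in for Clock, was low in liver, at 11.6, 29.4 and 4.79 in WT females, at 52.7, 3.66 and 2.18 in WT males, at 45.0, 50.6 and 5.88 in humanized females and at 19.1, 10.6 and 10.2 in humanized males. The highest and the lowest Npas2 value of all livers were both in WT males. Within the groups, libraries high in Clock were also high in Npas2 (Pearson r of the deviations from the group means 0.82 over 12 libraries). Across all 12 livers, with the group means left in, the r was only 0.35.

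**Figure D1:**
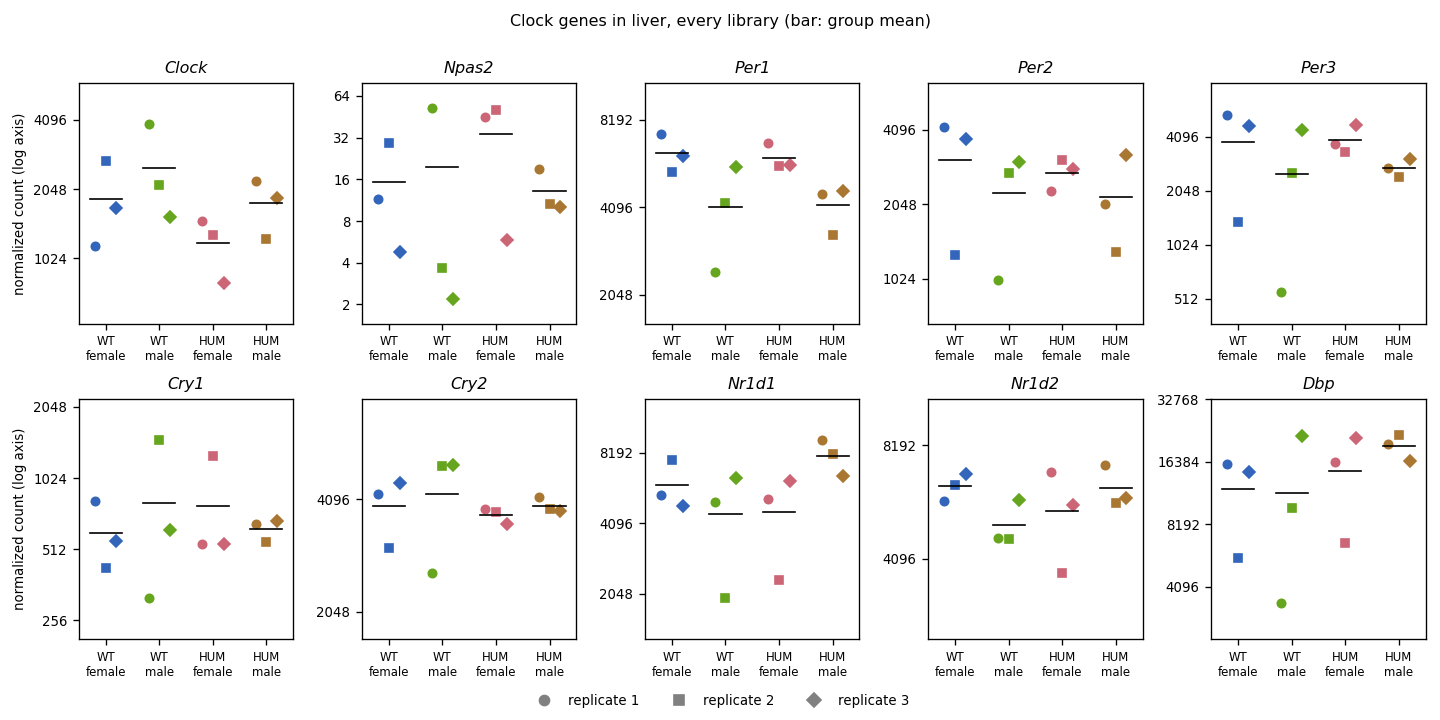
Normalized count (log axis) of the 10 clock genes in each of the 12 liver libraries, by group (HUM: humanized), with the group mean as a bar and the replicate number as the symbol. WT male 1 (circle) is lowest for Per1, Per2, Per3, Cry1, Cry2 and Dbp and highest for Clock and Npas2, and the genotypes overlap within each sex for every gene except Nr1d1 in males, where the humanized libraries (6477 to 9266) lie above the WT ones (1962 to 6379).

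Among the period genes, whose proteins repress CLOCK and BMAL1, Per3 (ENSMUSG00000028957) was at 5449, 1377 and 4707 in WT females and at 558, 2570 and 4477 in WT males. It was at 3719, 3362 and 4774 in humanized females and at 2750, 2453 and 3067 in humanized males. WT female 2 and WT male 1 were the lowest of their groups, and the humanized groups lay inside the range of the WT groups. Per2 (ENSMUSG00000055866) was lowest in these WT libraries too, at 1273 and 1012, and ranged from 1311 to 4222 in the other 10. Over the 12 livers Per2 and Per3 varied together (r = 0.87), and Per3 ran against Clock (r = -0.83). Per1 (ENSMUSG00000020893), which besides the clock also answers to glucocorticoids, ranged from 5435 to 7287 in WT females, 2448 to 5632 in WT males, 5683 to 6806 in humanized females and 3301 to 4671 in humanized males.

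The cryptochromes are the partners of the PER proteins. Cry1 (ENSMUSG00000020038) was at 425 to 817 in WT females, 319 to 1478 in WT males, 538 to 1270 in humanized females and 549 to 673 in humanized males. Its highest values were in WT male 2 and humanized female 2, which were also the lowest livers for Nr1d1, whose product represses Cry1 (r of Cry1 with Nr1d1 -0.72). Cry2 (ENSMUSG00000068742) stayed between 2591 and 5067 in all 12.

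Nr1d1 (ENSMUSG00000020889), which encodes REV-ERB alpha, was at 5050, 1962 and 6379 in WT males and at 9266, 8087 and 6477 in humanized males. It was at 5422, 7619 and 4853 in WT females and at 5212, 2330 and 6225 in humanized females. The male groups did not overlap, although 6379 and 6477 nearly touched, and the female groups did. Nr1d2 (ENSMUSG00000021775), which encodes REV-ERB beta, ranged from 3747 in humanized female 2 to 7266 in humanized male 1, with all groups overlapping. Dbp (ENSMUSG00000059824), the output activator, was at 16029, 5648 and 14671 in WT females, at 3425, 9769 and 21696 in WT males, at 16304, 6625 and 21272 in humanized females and at 20009, 21932 and 16567 in humanized males. Humanized males were high in every library for Dbp, with a mean of 19503 ± 2718 (SD, n = 3), while WT males spanned nearly the whole range, with 11630 ± 9276 (SD, n = 3).

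For humanized against WT males in liver, limma called 0 of the 10 members, against 0.0329% of all tested genes, and 0 were at an unadjusted p under 0.05, against 7.13%. The differences ran from -0.43 for Clock to 1.06 for Dbp, with standard errors of 0.21 to 1.14 and none stood out from its error at an unadjusted p under 0.05. Only Nr1d1 had groups that did not overlap, against 10.0% of all genes. In females 0 members were called, against 0.0198%, 0 were at an unadjusted p under 0.05, against 5.66%, and 0 had groups that did not overlap, against 14.1%. Over both sexes 0 were called, against 0.0329%, and 0 were at an unadjusted p under 0.05, against 5.07%.

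The male differences of Dbp and Per3 were not the same within each labelled preparation. WT male 1 is the sole WT male among the libraries made by ribosomal depletion. There the humanized minus WT difference in males was 2.61 for Dbp and 2.22 for Per3. Within the polyA libraries, which hold 1 humanized male, it was 0.19 for Dbp and -0.15 for Per3. Over all livers without WT male 1 both differences turned below 0, to -0.18 for Dbp and -0.57 for Per3. The ribosomal depletion contrast with a single WT male library assumes that WT males vary as the other groups do.

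Whether genotype acted alike in the sexes was tested as the genotype by sex difference. Of the 10 members 0 were called, against 0.00659% of all genes, and 1 was at an unadjusted p under 0.05, against 8.18%. This was Nr1d1, whose genotype difference was higher in males than in females by 1.45 (SE 0.571, adjusted p = 0.598). The Nr1d1 difference was 0.81 in males and -0.64 in females. The 8 feeding response genes (Fasn and Srebf1 among them) had 8 of 8 above 0 for genotype by sex (median 1.97, against 0.0075 for all tested genes), 6 at an unadjusted p under 0.05 and 0 called. Their median was 1.22 in males and -0.82 in females, and their part in the Nr1d1 difference was not tested.

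For males against females in liver, 0 members were called, against 9.59% of all tested genes, and 1 was at an unadjusted p under 0.05, against 26.1%. This was Per1, which was lower in males by a log2 difference of -0.62 (SE 0.184, adjusted p = 0.0609). The 6 male and the 6 female livers overlapped for all 10 members, where 5.65% of all genes did not. For Per1 the overlap came from WT male 3, at 5632, since the other males were at most 4671 and the lowest female was at 5435. Without WT male 3 limma called Per1 (adjusted p = 0.0247). Within the ribosomal depletion libraries, where WT females and WT males have 1 library each, the Per1 difference was -1.13. Over all the alternatives given at the end it ran from -1.13 to -0.26. Per2, Per3 and Dbp were lower in males within the ribosomal depletion libraries too, at -1.35, -1.99 and -1.03. For Dbp this is the opposite direction to the fit over all 12 livers, which gave 0.13 (SE 0.462, adjusted p = 0.894). In the ribosomal depletion libraries Dbp was at 3425 in WT male 1 against 16029 in WT female 1. There the humanized males, at 20009 and 21932, overlapped the humanized females, at 16304 and 21272. Within the polyA libraries, where humanized females and humanized males have 1 library each, the differences were above 0. They were 0.24 for Per2, 0.14 for Per3 and 1.00 for Dbp. Summed glucocorticoid response genes were at 19628 to 74888 in male and 50143 to 81939 in female livers, and their part in the Per1 difference was not tested.

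A few genes around the loop passed the threshold between the sexes in liver, where 9.59% of all tested genes were called. Bhlhe41, which encodes DEC2, a repressor at E-boxes, was at 26.5 to 112 in the 6 female and at 187 to 600 in the 6 male livers, higher in males by 2.71 (SE 0.233, adjusted p = 6.24e-05). It was the 1 gene called of 6 companions of the day arm (Tef, Hlf, Ciart, Bhlhe41, Usp2 and Wee1), and Arntl and Nfil3, companions of the night arm, were not called. Of 12 modifiers of the clock, 2 were called, both lower in males. Noct, which encodes the rhythmic phosphatase nocturnin, differed by -1.09 (SE 0.224, adjusted p = 0.0146), with 3493 to 7849 in females and 1601 to 5070 in males. Csnk1e, which encodes a casein kinase that phosphorylates PER proteins, differed by -0.61 (SE 0.12, adjusted p = 0.0121). Within the polyA libraries Noct and Csnk1e were not called (adjusted p = 0.415 and 0.236), nor was Csnk1e within the ribosomal depletion libraries (adjusted p = 0.128). Bhlhe40 and Timeless were at an unadjusted p under 0.05, also lower in males (adjusted p = 0.0566 and 0.0944).

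In the liver genotype comparisons 0 companions and 0 modifiers were called. At an unadjusted p under 0.05 in males were Noct, by 0.98 (adjusted p = 0.612), and Bhlhe40, which encodes the repressor DEC1, by 0.65 (adjusted p = 0.602). In females these were Csnk1e and Btrc, a subunit of a ubiquitin ligase, at -0.41 and -0.37 (adjusted p = 0.786 for both). Noct and Bhlhe40 were also at an unadjusted p under 0.05 for genotype by sex (adjusted p = 0.598 for both), and Csnk1e over both sexes (adjusted p = 0.88).

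To place each library in the cycle, the mean of the day arm (Nr1d1, Nr1d2, Dbp, Per1, Per2 and Per3) was set against that of the night arm (Clock, Npas2 and Cry1). Each gene entered as its log2 value minus its mean over the libraries of the tissue, and Cry2 was in neither arm. The arm difference is a description and has no test. Genes of the same arm did not all move together in liver. Nr1d1 had an r of 0.74 with Nr1d2, but -0.056 with Per1, -0.33 with Per2 and -0.047 with Per3. Cry1 had an r of -0.33 with Clock and -0.26 with Npas2, its partners in the night arm, and 0.60 with Per2. Per2 and Per3 did move together, and Per3 ran against Clock, as given above. In liver it was 0.59, -0.77 and 0.85 in WT females 1 to 3, and -1.84, -0.35 and 1.17 in WT males 1 to 3. It was -0.17, -1.13 and 1.17 in humanized females and -0.061, 0.29 and 0.25 in humanized males. The lowest and the highest of the 12 livers were thus both WT males, and humanized males were the narrowest group.

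The group means of the arm difference in liver were 0.22 ± 0.87 in WT females, -0.34 ± 1.51 in WT males, -0.044 ± 1.15 in humanized females and 0.16 ± 0.19 in humanized males (SD, n = 3 each). They lay closer together than the libraries within each group except humanized males. The SD pooled within the groups was 1.05, against 0.92 over all 12 livers. A narrower index set the early genes Nr1d1 and Dbp against the later Per1 and Per2. It averaged 0.83 ± 0.64 in humanized males, against -0.29 ± 0.31 in WT females, -0.16 ± 0.63 in WT males and -0.37 ± 0.85 in humanized females (SD, n = 3 each). The lowest humanized male, at 0.16, lay under the highest WT male, at 0.25. Arm differences ran from -1.84 to 1.17 in the 6 ribosomal depletion libraries and from -1.13 to 1.17 in the 6 polyA libraries. They did not follow the summed normalized count (r = -0.20).

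**Figure D2:**
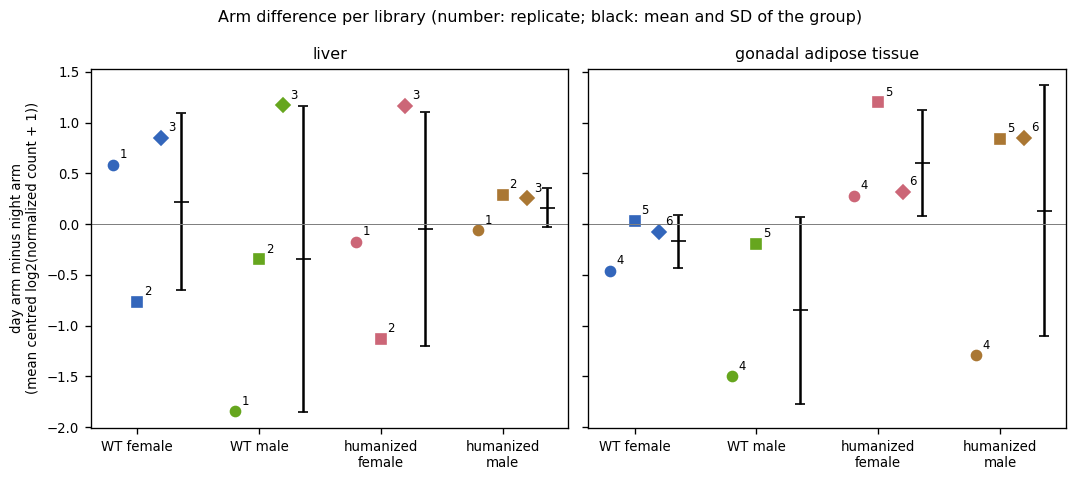
Difference between the day arm and the night arm in each library (y axis, mean of centred log2 values), by group, for liver and gonadal adipose tissue. Numbers are replicate numbers, and black bars are the group mean and SD. In liver WT males span -1.84 to 1.17 while humanized males stay between -0.061 and 0.29, and in adipose tissue WT male 4 and humanized male 4 lie lowest.

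Genes outside both arms were then read against the arm difference, as values the index did not use. Arntl, at 29.6 in humanized female 3 and 455 in WT male 2, ran against it in liver (r = -0.83 over 12 libraries, and -0.91 to -0.80 leaving out each library in turn). Its r was number 22 from the lowest of the 15170 ranked genes. Ciart, which encodes a repressor of CLOCK and BMAL1, Tef, a relative of Dbp, and Wee1, a cell cycle kinase driven by the clock, followed it (r = 0.81, 0.80 and 0.79). Without WT male 1 these became 0.67, 0.63 and 0.61. Leaving out humanized female 2 as well gave 0.54 for Ciart, 0.67 for Tef, 0.74 for Wee1 and -0.83 for Arntl. Of all ranked genes 0.349% had an r beyond 0.8 in either direction. Of the other companions, those reported had an r of 0.67 for Usp2, 0.43 for Hlf, -0.0068 for Bhlhe41 and -0.60 for Nfil3. Without WT male 1 the r was 0.31 for Usp2. With both WT male 1 and humanized female 2 left out, the r was 0.50 for Usp2, 0.15 for Hlf and -0.38 for Nfil3. Over the 12 livers Hlf, another relative of Dbp, ranged from 3766 to 8779, and Nfil3, a repressor at D-boxes, from 1183 to 4210.

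WT male 1 was the lowest liver for Ciart (219 against 850 to 2829 in the others), Wee1 (153 against 429 to 1995), Usp2 (562 against 2298 to 6597) and Tef (6522 against 11810 to 23820). Its Arntl, at 287, was the second highest and was under the 455 of WT male 2. WT male 2 and humanized female 2 shared another pattern, with the highest Cry1 and Nfil3 of the 12 livers, the lowest Nr1d1, and Per values inside the range of the rest.

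**Figure D3:**
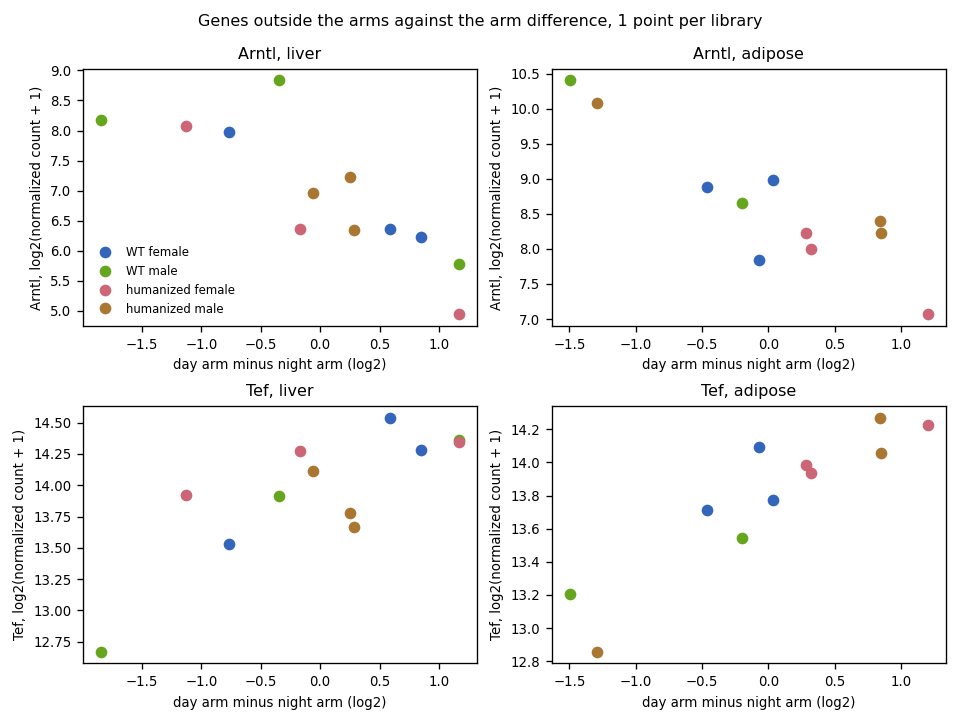
Arntl and Tef, as log2(normalized count + 1), against the arm difference (x axis, log2) in liver and adipose tissue, with 1 point per library coloured by group. Neither gene is part of the arms. Arntl runs against the arm difference (r = -0.83 in liver and -0.89 in adipose tissue) and Tef with it (r = 0.80 and 0.91), with points of the same group far apart.

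The genes most like the arm difference in liver were Gpx8, a peroxidase of the endoplasmic reticulum, Pcsk4, Bmf, Pcolce and Casp12 (r = 0.93, 0.92, 0.91, 0.90 and 0.90). The genes that ran most against it were Slc30a10, a metal exporter, Dtx4, a ubiquitin ligase of the Deltex family, Fam53c, Clpx and Hspb8 (r = -0.91, -0.90, -0.90, -0.88 and -0.88). These 10 were taken as the extremes of 15170 genes over 12 libraries.

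In adipose tissue, too, no member passed the threshold in any comparison, and Dbp and Npas2 varied most. The normalized count of Dbp varied 12.1-fold over the 11 libraries and that of Npas2 10.2-fold, while that of Cry2 varied 1.62-fold and that of Per1 1.64-fold. WT male 4 and humanized male 4 had the lowest means of the day arm, although WT male 4 had the highest Per1 of the 11 libraries.

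Clock was at 6560, 5349 and 5035 in WT females, 8936 and 4700 in WT males, 5131, 3975 and 4751 in humanized females and 6500, 5068 and 5373 in humanized males. Npas2 was at 416, 356 and 285 in WT females and at 171, 78.1 and 119 in humanized females, so the female groups did not overlap. In males it was at 794 and 190 in WT and at 499, 149 and 79.5 in humanized mice, and the groups overlapped. WT male 4 and humanized male 4 had the highest Npas2 of the 11 libraries.

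Per1 was at 12779, 12229 and 9723 in WT females and at 13482, 13897 and 14072 in humanized females. It was at 15938 and 14444 in WT males and at 9774, 14609 and 10331 in humanized males. Per1 was thus higher in all humanized females than in all WT females, and in males only humanized male 5 reached the WT range. Per2 was at 4071, 3383 and 3095 in WT females, 3214 and 4266 in WT males, 4673, 5077 and 5159 in humanized females and 1479, 4626 and 3215 in humanized males. Per3 was at 3599, 3988 and 4347 in WT females, 2503 and 4654 in WT males, 4360, 6178 and 4820 in humanized females and 1960, 5565 and 4278 in humanized males. All 3 Per genes were higher in each humanized female than in each WT female, although for Per3 the groups nearly touched at 4347 and 4360, and humanized male 4 was the lowest of all libraries for Per2 and Per3.

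Cry1 was at 1016, 585 and 1010 in WT females, 1072 and 1308 in WT males, 845, 859 and 1104 in humanized females and 888, 790 and 596 in humanized males. The male groups did not overlap, with humanized males lower. Cry2 stayed between 5950 in humanized male 4 and 9641 in humanized male 5.

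Dbp was at 1597 and 4486 in WT males and at 4041, 17008 and 12532 in humanized males. It was at 7241, 9936 and 11858 in WT females and at 9664, 19374 and 6838 in humanized females. The WT males were below every other library except humanized male 4, and the female groups overlapped. Nr1d2 followed Dbp closely (r = 0.96 over 11 libraries) over a narrower range, 4494 to 8928. Nr1d1 was at 18191, 18696 and 20486 in WT females, 18214 and 13197 in WT males, 14726, 21127 and 13929 in humanized females and 10386, 31098 and 25525 in humanized males, so that humanized males held both its lowest and its highest values.

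**Figure D4:**
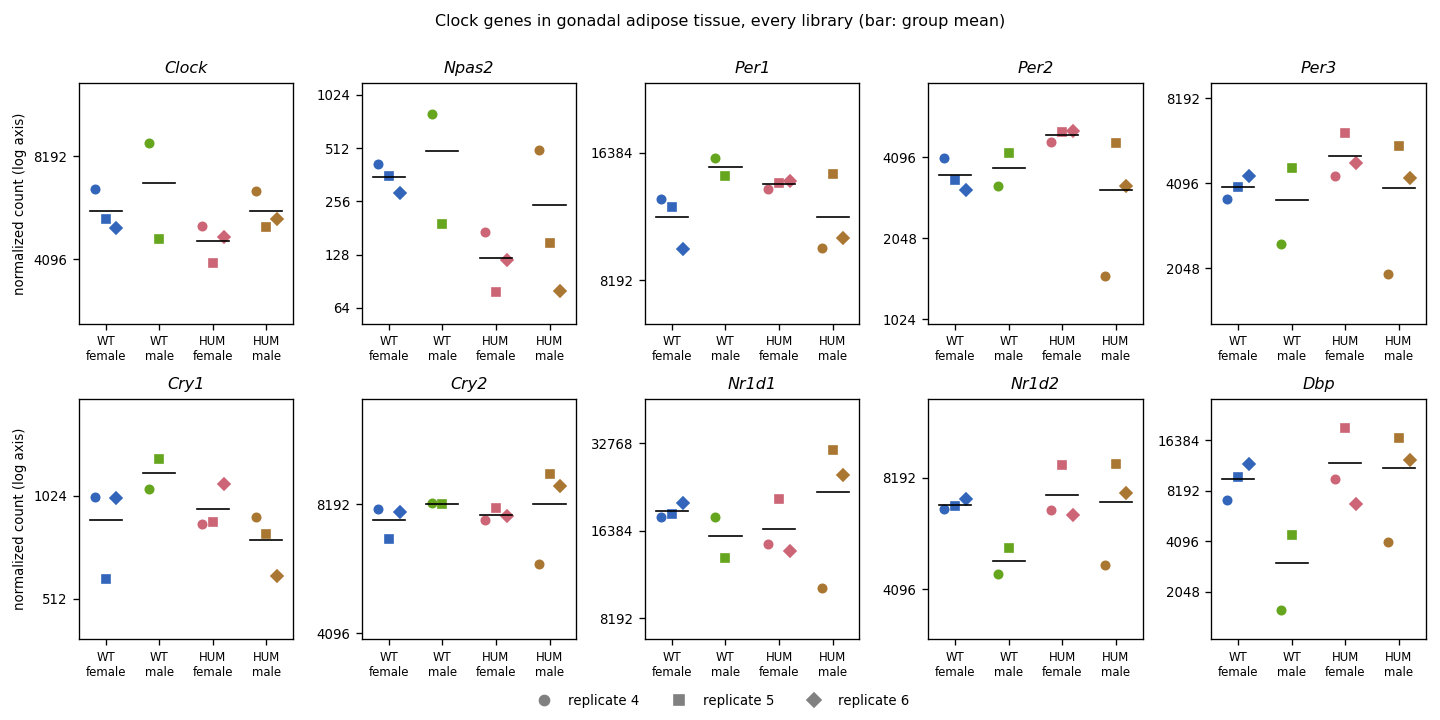
Normalized count (log axis) of the 10 clock genes in each of the 11 gonadal adipose libraries, by group (HUM: humanized), with the group mean as a bar and the replicate number as the symbol. WT females and humanized females do not overlap for Npas2 (285 to 416 against 78.1 to 171) or for Per1, Per2 and Per3, and humanized male 4 (circle) lies far from humanized males 5 and 6 for Per2, Per3, Nr1d1 and Dbp.

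For humanized against WT males in adipose tissue, limma called 0 of the 10 members, against 0.0172% of all tested genes. At an unadjusted p under 0.05 were 3 members, against 8.41%: Dbp, higher by 1.83 (SE 0.66, adjusted p = 0.485), Cry1 at -0.66 (SE 0.275, adjusted p = 0.568) and Per1 at -0.41 (SE 0.179, adjusted p = 0.576). The glucocorticoid response genes were below 0 in the same comparison for 8 of 8 (median -0.73, 3 at an unadjusted p under 0.05, 0 called), as were 8 of 8 hepatocyte markers (median -1.88), and their part in the Per1 difference was not tested. Groups that did not overlap were found for 1 member, Cry1, against 23.3% of all genes. Without humanized male 4 this became 6 members, with Nr1d1, Nr1d2, Dbp and Cry2 higher and Cry1 and Npas2 lower, against 36.5% of all genes. It was also 6 without WT male 5, against 56.6%. The Dbp difference was 1.09 without WT male 4 (adjusted p = 0.704) and 2.58 without humanized male 4 (adjusted p = 0.312).

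For humanized against WT females in adipose tissue 0 members were called, against 0.0172% of all genes. Npas2 was the 1 member at an unadjusted p under 0.05, against 5.25%, with a difference of -1.57 (SE 0.693, adjusted p = 0.933). Groups that did not overlap were found for 4 of the 10 members, Per1, Per2 and Per3 higher and Npas2 lower in humanized females, against 11.0% of all genes. When the libraries were rescaled to the same median this was 3 members. In the same comparison 6 of 6 mesothelial, 5 of 5 B cell and 7 of 7 macrophage markers had a difference above 0 (medians 1.29, 1.28 and 0.44), as had 0 of 6 T cell markers (median -1.07). None of these markers was called, and their part in the clock values was not tested. For Per1, Per2 and Per3 the differences did not reach an unadjusted p of 0.05.

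Over both sexes 0 members were called in adipose tissue, against 0.023%, and 2 were at an unadjusted p under 0.05, against 7.11%. These were Npas2 at -1.33 (SE 0.52, adjusted p = 0.639) and Dbp at 1.01 (SE 0.443, adjusted p = 0.692). Without WT male 4 the Dbp difference was 0.64 and the Npas2 difference -0.82. For genotype by sex 0 were called, against 0% of all genes, and 1 was at an unadjusted p under 0.05, against 6.8%, namely Per1 at -0.68 (SE 0.24, adjusted p = 0.674). For males against females 0 were called, against 0.42%, and 1 was at an unadjusted p under 0.05, against 12.5%, namely Dbp at -1.01 (SE 0.443, adjusted p = 0.393). No member had male and female libraries that did not overlap, against 1.94% of all genes.

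Of the companions and modifiers 0 were called in any adipose comparison. The smallest p-values in males were those of the DEC repressors Bhlhe41 and Bhlhe40. Bhlhe41 was at 1128 and 1189 in WT males and at 2730 to 5012 in humanized males, a difference of 1.59 (SE 0.303, adjusted p = 0.194). Bhlhe40 was at 1185 and 1701 in WT males and at 3551 to 6596 in humanized males, a difference of 1.80 (SE 0.381, adjusted p = 0.251). Neither pair of groups overlapped, and the WT males were also below the females, at 1625 to 2863 and 2103 to 4837. Both genes were at an unadjusted p under 0.05 over both sexes as well (0.82 and 0.86, adjusted p = 0.454 and 0.526) and for genotype by sex (1.55 and 1.89, adjusted p = 0.617 and 0.618). Nampt in males, Nampt for genotype by sex, Wee1 in females and by sex, and Arntl by sex were also at an unadjusted p under 0.05, with adjusted p from 0.246 to 0.933.

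Genes of the same arm did not all move together in adipose tissue either. Per1 had an r of 0.68 with Per2 and 0.30 with Per3, but 0.096 with Nr1d1, -0.029 with Nr1d2 and -0.23 with Dbp. Cry1 had an r of 0.10 with Clock and 0.25 with Npas2, while Clock had one of 0.83 with Npas2. The arm difference in adipose tissue was -0.46, 0.033 and -0.074 in WT females 4 to 6, and -1.50 and -0.20 in WT males 4 and 5. It was 0.28, 1.20 and 0.32 in humanized females and -1.29, 0.84 and 0.85 in humanized males. The 3 humanized females lay above the 3 WT females, while humanized male 4 lay between the WT males and humanized males 5 and 6 above both. Replicate 4 had the lowest arm difference and the highest Clock, Npas2 and Nfil3 of its group in all 4 groups. The labels do not say what a replicate number stands for, and its part in the spread was not tested. Group means were -0.17 ± 0.26 in WT females, 0.60 ± 0.52 in humanized females and 0.13 ± 1.24 in humanized males (SD, n = 3 each), and -0.85 ± 0.92 in WT males (SD, n = 2). The SD within groups was 0.81, against 0.85 over all 11 libraries. The index of early against later day genes was -1.21 and -0.83 in WT males, below the -0.60 to 0.84 of the other 9 libraries.

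Part of the companions followed the arm difference in adipose tissue as well. Hlf and Tef, the PAR bZIP relatives of Dbp, were numbers 2 and 3 from the top of 17384 genes (r = 0.92 and 0.91), and Ciart had an r of 0.85. Arntl ran against it (r = -0.89, number 6 from the lowest), from 133 in humanized female 5 to 1086 in humanized male 4 and 1352 in WT male 4. Of all ranked genes 0.495% had an r beyond 0.8. Without WT male 4 and humanized male 4 the r was 0.77 for Hlf, 0.81 for Tef, 0.50 for Ciart and -0.66 for Arntl, over 9 libraries. Usp2, Bhlhe41 and Wee1 had an r of 0.59, 0.53 and 0.28, and Nfil3 one of -0.59. Without WT male 4 and humanized male 4 the r was 0.30 for Usp2, 0.56 for Bhlhe41, 0.047 for Wee1 and -0.59 for Nfil3. Over the 11 libraries Tef ranged from 7422 to 19763, Hlf from 456 to 2046, Ciart from 65.5 to 522, Usp2 from 648 to 1575, Wee1 from 711 to 2268 and Nfil3 from 495 to 1403. Besides Hlf and Tef, the genes most like the arm difference were Lrfn4 (r = 0.95), Zbtb4 (0.91) and Tmem44 (0.89), and those most against it were Dtx4 (-0.93), Tma16, Tecpr2, Glrx, a glutaredoxin, and Snx10 (-0.91, -0.91, -0.91 and -0.90).

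Dtx4 was thus among the 5 genes most against the arm difference in both tissues, which may have been taken from the same mice. Its count ranged from 495 to 1951 in liver and from 1906 to 7586 in adipose tissue. Leaving out each library in turn its r stayed between -0.92 and -0.87 in liver and between -0.96 and -0.91 in adipose tissue. Dtx4 was named for its r in these same libraries, so these ranges describe it and are no separate evidence.

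How far the clock genes varied among libraries of the same group was set against all genes. The SD within groups of log2(normalized count + 1) was above the median of all tested genes for 9 of the 10 members in liver, all but Nr1d2, and for 6 of 10 in adipose tissue. In liver the SD was 1.52 for Npas2, 0.96 for Per3 and 0.91 for Dbp, against a median of 0.31, and 97.3%, 92.4% and 91.3% of tested genes had a smaller one. In adipose tissue it was 0.96 for Npas2, 0.84 for Dbp and 0.51 for Per3, against a median of 0.31, and 87.0%, 83.8% and 68.1% of tested genes had a smaller one. Per1, Cry2, Nr1d2 and Clock were below the median there. The Npas2 counts in liver are low, from 2.18 to 52.7. Arntl, which is no member, had an SD of 1.24 in liver and 0.86 in adipose tissue.

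**Figure D5:**
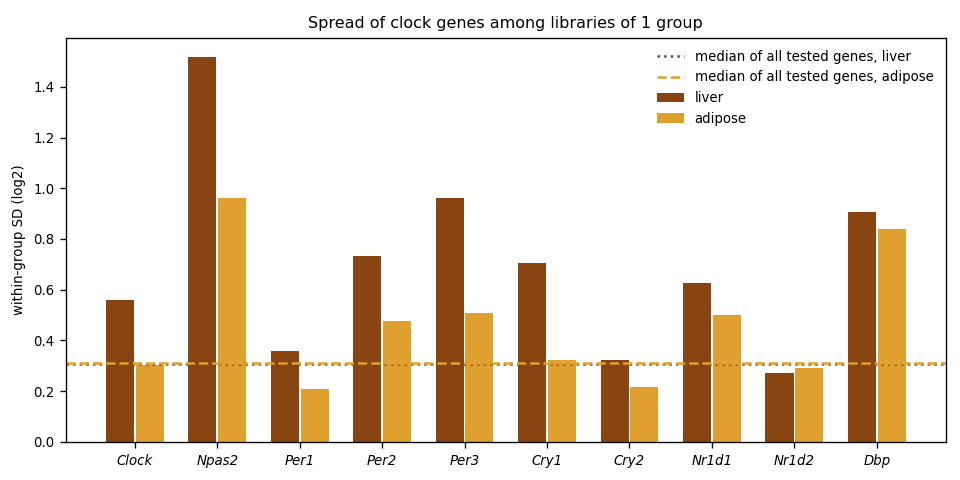
SD within groups of log2(normalized count + 1) for each clock gene in liver and adipose tissue, as bars from 0, with the median over all tested genes of each tissue as a line. In liver 9 of 10 bars exceed the median of 0.31, with Npas2 (1.52), Per3 (0.96) and Dbp (0.91) the tallest, and in adipose tissue 6 of 10 do.

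Other measures moved with some of these libraries. In adipose tissue humanized male 4, low in the day arm, also had the lowest sums of fasting response genes (212092 against up to 680642), feeding response genes (1596140 against up to 5687040) and mesothelial markers (3272 against up to 71077), and the highest of immediate early genes (59026) and neutrophil markers (455). In liver, humanized female 2 had the highest sums of immediate early genes (26517) and neutrophil markers (861). Over the 12 livers the summed fasting and feeding response genes had an r of 0.07 and 0.22 with the arm difference, and over the 11 adipose libraries 0.43 and 0.57. Their part in the clock values was not tested. Since the hour of collection was not given in the sources used here, hour, feeding state and animal cannot be told apart as sources of the spread.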

How the data were processed

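Liver (12) and gonadal adipose (11) mRNA libraries were analysed, and the small RNA tables were not used here. The deposited values are normalized counts (a signal that need not be whole). Per the submitters' processing notes, DESeq2, STAR, Salmon, limma and the mm9 build were used, with no versions or roles named. Reads could not be recovered from the values, so no count test was run and intervals for counting error are not given. Whether counting used strand is not given in the sources used here. In the RefSeq gene table Nr1d1 overlaps Thra, Dbp overlaps Sphk2, Per3 overlaps Uts2 and Cry2 overlaps D930015M05Rik, so reads may be shared. Per the labels' protocols, 6 liver libraries were made by ribosomal depletion and 6 by polyA enrichment.

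limma 3.58.1 (R 4.3.3, empirical Bayes with trend) was fitted per tissue on log2(value + 1) over genes with a mean of at least 10, with 4 group means and, in liver, the preparation. All p-values were adjusted over all tested genes. The fit was tested on simulated data. The members, the lists and the rule for named genes (all members, listed genes at an unadjusted p under 0.05, the 5 most and 5 least like the arm difference) were chosen with earlier results of these data known. Of the listed companions and modifiers, 2 are not reported here, though they stayed in every fit and count.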

Additional observations from a re-analysis of the deposited data

How the results depend on the processing

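Alternatives were a pseudocount of 10, no filter, libraries rescaled to one median, the replicate number as a block, each library left out in turn and, in liver, no preparation term or either preparation alone. The count of members called, 0 in each of the 10 comparisons, changed in 2 of them. Within ribosomal depletion libraries, where WT females and WT males have 1 library each, it rose for liver males and for males against females. Those counts are not given, since the share of all genes called there was not set beside them. Leaving out 1 library gave 0 to 1 members called for males against females. With the replicate block the count was 0 in every comparison. The labels do not say that same-numbered libraries share an animal or batch, and the r of their deviations from the group means was -0.154 to 0.113 in liver and -0.105 to 0.399 in adipose tissue, where 9 of 15 pairs were above 0.1 and the median was 0.148 against -0.0895 for other pairs. Members called within the ribosomal depletion libraries only changed sign elsewhere. In liver males Per3 (0.68 in the full fit) was -0.15 within the polyA libraries and -0.57 to 1.22 on leaving out 1 library, and Dbp (1.06) was -0.18 to 1.68. For males against females Per3 and Per2 (-0.66 and -0.41) were 0.14 and 0.24 within the polyA libraries, and Dbp (0.13) was -1.03 within the ribosomal depletion libraries and -0.22 to 0.63 on leaving out 1 library. None of the printed differences at an unadjusted p under 0.05 in the full fit changed sign. Other printed differences, such as those of Clock in males and of Nr1d1 in males or in females, were not followed through the alternatives. Counts of members whose groups did not overlap were an alternative chosen after seeing the data, like those for the spread. On leaving out 1 library they ranged from 1 to 3 in liver males and 0 to 2 in liver females. In adipose tissue they ranged from 1 to 6 in males and 4 to 6 in females. The 6 in adipose males stood against 36.5% of all genes without humanized male 4 and 56.6% without WT male 5. For the other libraries left out, the share of all genes was not counted. The members with a spread above the median gene numbered 7 to 9 in liver and 5 to 8 in adipose tissue. Group means of the arm difference moved by less than 1 SD of their group under other pseudocounts, scalings and arms, and that of humanized females in liver changed sign, from -0.044 to 0.13 with each gene divided by its SD. On leaving out 1 library, a mean of 2 or 3 values always moves by less than 1 SD, so that limit tells nothing. The means of WT females, WT males and humanized females in liver could change sign on leaving out 1 library. So could that of humanized males in adipose tissue. With 2 or 3 libraries a group, differences such as those of Dbp and Npas2 in adipose tissue did not pass the adjustment, and the depth in reads is unknown.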
